A study of Mus musculus with 12 samples.

Results

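The BAF complexes are chromatin remodelers of the SWI/SNF type, and 10 of their subunit genes that are exchanged or shift in amount between neural progenitors and neurons were followed here in embryonic mouse brain. The members are listed by symbol, and no threshold on a measured value selects them, although earlier results of these data were known when the list was drawn up: Actl6a, Actl6b, Phf10, Dpf1, Dpf3, Smarca4, Smarca2, Smarcc1, Smarcc2 and Ss18l1. All 10 were found among the 22667 genes of each table, and all 10 passed the filter on low counts that left 16111 genes for testing. RNA had been sequenced from cortex and hippocampus of embryos at stage E18.5, from controls labelled as wild type and from animals labelled nSR100/Srrm4 KO. Srrm4, also called nSR100, encodes a splicing factor of neurons that promotes the inclusion of very short exons. The knockout allele lacks exons 7 and 8, removed from a floxed EUCOMM allele on a C57Bl/6N background by a Cre transgene under the CMV promoter, which deletes in the whole animal rather than in neurons alone. Each combination of tissue and genotype, 4 groups in all, had 2 libraries, numbered replicate 1 and replicate 2. Nothing in the labels says whether the 2 libraries of a group, or the cortex and hippocampus libraries of one number, came from separate embryos. The p-values below therefore speak of the scatter among these 8 libraries only, and some of it may be technical. Y-linked sums, given below, differed between the 2 libraries of each group, so these were not repeats of the same embryo material.

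BAF complexes use the energy of ATP to slide or evict nucleosomes. Many of their positions can be filled by alternative subunits, and the exchange of a few of them as neural progenitors leave the cell cycle is a textbook case of a chromatin switch: the actin-like protein Actl6a (BAF53a) gives way to Actl6b (BAF53b), the double PHD finger protein Phf10 (BAF45a) gives way to Dpf1 (BAF45b) and Dpf3 (BAF45c), and Ss18 gives way to its paralog Ss18l1 (CREST). The ATPases Smarca4 (BRG1) and Smarca2 (BRM) and the scaffold subunits Smarcc1 (BAF155) and Smarcc2 (BAF170) occur in both kinds of complex in changing amounts. In neurons, miR-9-3p (also called miR-9*) and miR-124 silence Actl6a through its 3′ untranslated region, and in progenitors the repressor REST keeps both microRNAs low.

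Because that silencing is written in sequence, the seeds of both arms of miR-9 are shown first, from the RefSeq microRNA table for GRCm38.p6, with bases 2 to 8, the seed, in capitals.
miR-9-3p: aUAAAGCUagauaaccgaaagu
miR-9-5p: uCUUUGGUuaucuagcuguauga
A 7-base match to the miR-9-3p seed (AGCTTTA in DNA letters, transcript strand) was searched for in the longest annotated 3′ untranslated region of each gene (GENCODE M21, GRCm38). It was present in 11.9% of 19610 such regions, whose median length was 1122 bases. Among the members it was found in Actl6a, Smarca2 and Smarcc1, the last with 2 matches. Each is shown with its flanks, the match in capitals.
Actl6a, plus strand, chr3:32726640-32726646: caacgtctgtAGCTTTAgtaca
Smarca2, plus strand, chr19:26777502-26777508: atctagaactAGCTTTAgggta
Smarcc1 (1), plus strand, chr9:110238613-110238619: caaagagcacAGCTTTAcaaca
Smarcc1 (2), plus strand, chr9:110239441-110239447: tgtattttaaAGCTTTAtgtat
The Actl6a match lies at base 243 of a region of only 376 bases. No member held the match to the miR-9-5p seed (ACCAAAG), which was present in 13.7% of the regions. Of the regulators Rest and Rcor1, Rest held 1 such match, at chr5:77286176-77286182 on the plus strand, and Rcor1 held none. A match of letters is a description of the sequence and does not show that a site is used.

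Promoters were compared in the same way, over the 250 bases before each RefSeq start (GRCm38.p6). Of the 10, 4 are printed: Actl6a and Actl6b as the pair that replace one another, and Dpf1 and Dpf3 because, with Actl6b, they are the members that hold a CCAAT box. They were chosen after the motifs had been counted. Capitals mark the GC box (GGGCGG, bound by Sp-family factors) and the CCAAT box (CCAAT, bound by NF-Y), each on either strand.
Actl6a, chr3:32708296-32708545, plus strand: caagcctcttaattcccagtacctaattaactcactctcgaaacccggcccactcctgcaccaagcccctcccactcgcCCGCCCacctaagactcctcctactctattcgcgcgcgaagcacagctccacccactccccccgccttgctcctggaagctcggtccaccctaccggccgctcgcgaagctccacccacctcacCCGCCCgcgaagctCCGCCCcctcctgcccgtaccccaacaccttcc
Actl6b, chr5:137553296-137553545, plus strand: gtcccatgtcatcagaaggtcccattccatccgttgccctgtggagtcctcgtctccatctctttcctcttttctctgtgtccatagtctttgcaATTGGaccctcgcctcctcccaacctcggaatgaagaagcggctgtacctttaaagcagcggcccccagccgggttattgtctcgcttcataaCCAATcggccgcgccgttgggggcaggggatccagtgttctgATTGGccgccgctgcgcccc
Dpf1, chr7:29303755-29304004, plus strand: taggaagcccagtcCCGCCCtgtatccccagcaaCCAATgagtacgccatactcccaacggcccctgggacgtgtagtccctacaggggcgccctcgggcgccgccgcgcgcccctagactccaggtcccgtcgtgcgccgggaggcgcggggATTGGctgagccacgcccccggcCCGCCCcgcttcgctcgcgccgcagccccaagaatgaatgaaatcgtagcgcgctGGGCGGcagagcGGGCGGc
Dpf3, chr12:83487737-83487986, minus strand: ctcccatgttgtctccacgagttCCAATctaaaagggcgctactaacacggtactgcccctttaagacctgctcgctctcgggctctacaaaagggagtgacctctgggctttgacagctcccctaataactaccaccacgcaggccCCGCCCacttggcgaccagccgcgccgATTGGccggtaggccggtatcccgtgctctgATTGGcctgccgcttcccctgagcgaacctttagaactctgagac
The CCAAT box was found in 3 of the 10 member promoters, those of Actl6b, Dpf1 and Dpf3, and in 33.8% of all 32851 promoters. Actl6b and Dpf3 held 3 copies each and Dpf1 held 2. The GC box was found in 8 members, all but Actl6b and Smarcc2, and in 32.7% of all promoters. Actl6a held 3 GC boxes and no CCAAT box, and Actl6b the reverse, 3 CCAAT boxes and no GC box. The left part of the site bound by REST (TTCAGCACC, either strand) was in none of the member promoters and in 0.301% of all promoters, and the right part (GGACAG, either strand) was in 1, that of Smarcc2, and in 18.7% of all promoters. GC content of the member windows ran up to 88.4%, in Phf10, and was in each of the 10 above the median of 52.4% over all promoters.

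Read totals ran from 58210499 to 140052443 per library. Replicate 1 of each group was read in 2 runs and replicate 2 in 1, so the replicate number also marks depth. The labels do not say whether the KO embryos were homozygous for the deletion. The targeted gene was lower in every KO library but was still read there: Srrm4 stood at 24.2 to 27.9 RPKM (reads scaled to gene length and to library total) in the 4 controls and at 5.68 to 8.12 RPKM in the 4 KO libraries. Its log2 fold change over both tissues was -1.96 ± 0.11 (SE; edgeR quasi-likelihood test, adjusted p 0.000157). In 2 libraries a measure stood apart from the rest. In hippocampus KO replicate 1 mitochondrial genes took 4.40% of the counts against 3.14 to 3.44% in the others. In hippocampus control replicate 2 the 6 choroid plexus markers summed to 195 CPM (counts scaled to library total), against 21.0 to 37.0 CPM in the other hippocampal libraries and 3.18 to 10.5 CPM in cortex. Y-linked genes summed to 144 and 148 CPM in the replicate 2 controls, 0.319 and 0.412 CPM in the replicate 2 KO libraries and 25.4 to 49.8 CPM in the replicate 1 libraries, so sex and genotype cannot be told apart within replicate 2. Each main KO comparison below includes replicate 2 libraries of both genotypes and so carries this difference in sex. Reads of a member could be shared with an overlapping gene on the other strand in 3 cases that the tables list, Mrpl47 with Actl6a, Dhx30 with Smarcc1 and 1600012H06Rik with Phf10. The rule by which such reads were assigned is not stated in the labels. The highest levels of these overlapping genes were 7.88 RPKM for Mrpl47, 48.75 RPKM for Dhx30 and 12.11 RPKM for 1600012H06Rik. Those of the members were 27.85 RPKM for Actl6a, 42.6 RPKM for Smarcc1 and 37.05 RPKM for Phf10. Dhx30 thus reached a higher level than Smarcc1.

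Every member was expressed in every library. RPKM is per length, so levels of different genes are set side by side here with 1 limit. The gene length that RPKM and count imply was 1247 bases for Dpf3 and 1442 bases for Phf10, shorter than their longest annotated 3′ untranslated regions of 1996 and 3117 bases. For those genes the lengths used are thus shorter than the longest annotated transcript, and the labels do not state how lengths were set. The order of genes and the size of a ratio between genes depend on that choice, whereas a comparison of 1 gene, or of 1 ratio, between libraries does not. Smarcc2 was the most abundant in each of the 4 groups, at 128 ± 1.03 RPKM in cortex controls and 124 ± 5.36 RPKM in hippocampus controls (mean ± SD, n = 2 throughout). Actl6b and Smarca4 followed, and their values overlapped in 3 of the 4 groups, all but the cortex controls. Dpf1 came next in every group. Dpf3 was the least abundant in every group, at 2.04 ± 0.255 RPKM in cortex controls and 6.62 ± 1.95 RPKM in hippocampus controls, and Actl6a stood just above it. Actl6b exceeded Actl6a and Dpf1 exceeded Phf10 in every library, whereas Dpf3 was below Phf10 in every library. The order below Dpf1 differed by tissue. Smarca2 stood above Smarcc1, Ss18l1 and Phf10 in both cortex groups. In both hippocampus groups its mean was below those of Smarcc1 and Phf10, and its values there overlapped those of Ss18l1 in both genotypes and those of Phf10 in the KO.

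**Figure D1:**
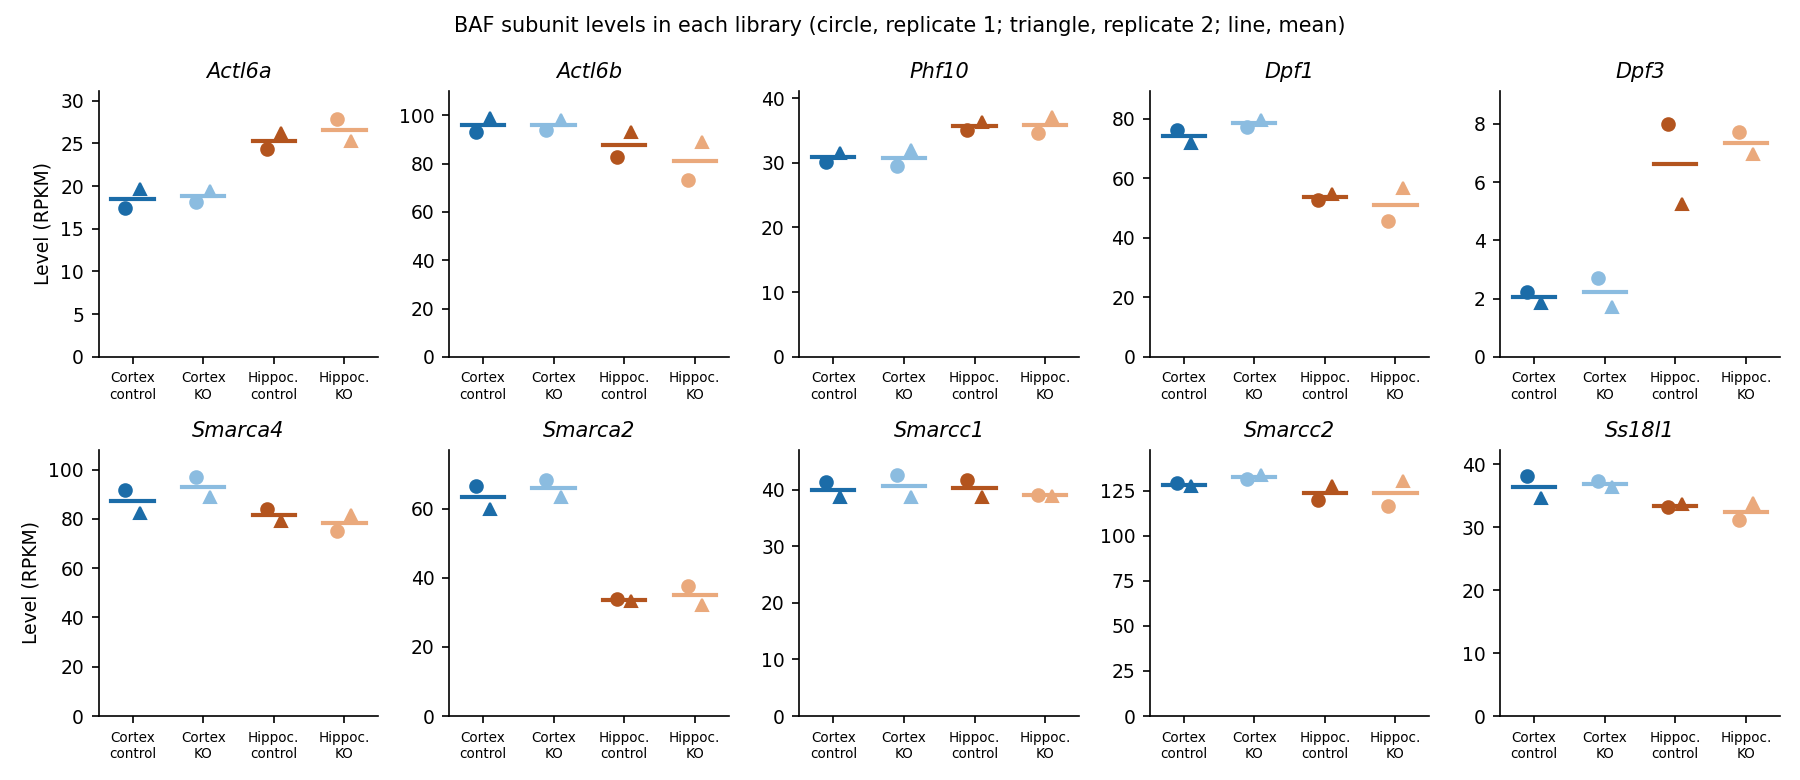
Level of each member in the 8 libraries (vertical axis, RPKM, starting at 0; horizontal axis, the 4 groups; circle, replicate 1; triangle, replicate 2; line, mean of the 2 libraries). Smarca2, Dpf1, Actl6a and Dpf3 separate by tissue, from 59.8 to 68.2 RPKM in cortex against 32.2 to 37.5 RPKM in hippocampus for Smarca2, while control and KO libraries of a tissue lie close together.

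The design first allows hippocampus to be set against cortex. Over both genotypes, 9 of the 10 members differed between the tissues at an adjusted p under 0.05 (edgeR quasi-likelihood test, Benjamini-Hochberg over all genes tested), against 54.1% of all genes tested. Higher in hippocampus were 3 members, Actl6a, Phf10 and Dpf3 (29.0% of all genes were higher), and lower were 6, Actl6b, Dpf1, Smarca2, Smarca4, Smarcc2 and Ss18l1 (25.0% of all genes were lower). Smarcc1 did not pass. Without hippocampus control replicate 2, the library high in choroid plexus markers, 7 members passed (Phf10 and Smarcc2 did not), and without hippocampus KO replicate 1 the count was 9. The median log2 difference of the members was -0.21, beside 0.02 for all genes tested. Fold changes here were fitted to counts with TMM scaling factors, whereas RPKM is scaled to the library total. A fold change can therefore differ from the ratio of the RPKM printed beside it, which matters most for small differences. In bulk tissue fewer cells of a type and less RNA per cell cannot be told apart.

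The actin-like subunits moved in opposite directions. Actl6a, the progenitor form, was read at 17.4 and 19.6 RPKM in the cortex controls and 18.2 and 19.4 RPKM in the cortex KO. In hippocampus it stood at 24.4 and 26.3 RPKM in controls and 27.9 and 25.3 RPKM in the KO. Every hippocampal library was thus above every cortical one. The difference was 1.31-fold (log2 0.38 ± 0.05, SE; edgeR adjusted p 0.000233). Actl6b, the neuronal form and the partner that neurons need for dendrite growth, was read at 93.2 and 99.0 RPKM in cortex controls and 94.0 and 98.3 RPKM in cortex KO. Its hippocampal values were 82.7 and 93.1 RPKM in controls and 73.2 and 88.9 RPKM in the KO. The tissues touched without overlapping, the highest hippocampal library lying just under the lowest cortical one, and the lowest value of all came from hippocampus KO replicate 1. Actl6b was 0.825-fold of its cortical level (log2 -0.28 ± 0.07, SE; edgeR adjusted p 0.00822). Without that library the log2 difference was -0.20 and still passed (edgeR adjusted p 0.00392). On the RPKM scale, limma on log2(RPKM + 1) over all libraries gave -0.19 for Actl6b (adjusted p 0.0505).

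The PHD finger subunits differed more. Dpf1, a neuronal member, stood at 76.3 and 71.8 RPKM in cortex controls and 77.3 and 79.6 RPKM in cortex KO. It stood at 52.5 and 54.8 RPKM in hippocampus controls and 45.7 and 56.5 RPKM in hippocampus KO. The tissues were well separated, and the hippocampal level was 0.645-fold of the cortical one (log2 -0.63 ± 0.08, SE; edgeR adjusted p 9.41e-05). Dpf3, a reader of modified histone tails that is also listed with the neuronal complex, went the other way. It was read at 2.22 and 1.86 RPKM in cortex controls, 2.71 and 1.72 RPKM in cortex KO, 8.00 and 5.24 RPKM in hippocampus controls and 7.72 and 6.96 RPKM in hippocampus KO. Its lowest hippocampal library was above its highest cortical one, and its difference of 3.05-fold was the largest of the 10 members (log2 1.61 ± 0.18, SE; 95% interval 1.20 to 2.01). Dpf3 also had the fewest reads, with 135 counts in its lowest library, and the widest interval. Phf10, the progenitor form, stood at 29.6 to 32.0 RPKM in the 4 cortical libraries and 34.6 to 37.0 RPKM in the 4 hippocampal ones, without overlap. Its fitted difference was small, 1.09-fold (log2 0.13 ± 0.05, SE; edgeR adjusted p 0.0449), and did not pass with DESeq2 (adjusted p 0.101) or without any one of 7 of the 8 libraries (adjusted p up to 0.138).

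Of the ATPases, Smarca2 was read at 66.7 and 59.8 RPKM in cortex controls and 68.2 and 63.4 RPKM in cortex KO. In hippocampus it was read at 34.0 and 33.2 RPKM in controls and 37.5 and 32.2 RPKM in KO. Each hippocampal library held far less than any cortical one, and the fitted level was 0.498-fold (log2 -1.01 ± 0.07, SE; edgeR adjusted p 2.62e-06), the largest decrease among the members. Smarca4, the alternative motor and the main one of progenitors, ranged from 82.5 to 97.1 RPKM in cortex and from 75.0 to 83.8 RPKM in hippocampus. These ranges overlapped, and the hippocampal level was 0.833-fold (log2 -0.26 ± 0.08, SE; edgeR adjusted p 0.0155). That call was lost without cortex control replicate 1 (edgeR adjusted p 0.0570). Of the scaffold subunits, Smarcc2 ranged from 128 to 133 RPKM in cortex and from 117 to 131 RPKM in hippocampus. It was 0.891-fold (log2 -0.17 ± 0.06, SE; edgeR adjusted p 0.0344), and did not pass in 9 of 17 alternative settings, among them limma on RPKM and 5 of the 8 fits that leave out a library. With limma on log2(RPKM + 1) the log2 difference of Smarcc2 was -0.077 (adjusted p 0.187). Smarcc1, at 38.8 to 42.6 RPKM in cortex and 38.8 to 41.8 RPKM in hippocampus, gave a log2 difference of -0.12 (95% interval -0.26 to 0.02; edgeR adjusted p 0.143). Ss18l1, a calcium-responsive coactivator of dendrite growth, ranged from 34.6 to 38.1 RPKM in cortex and from 31.1 to 33.8 RPKM in hippocampus, without overlap. It was 0.845-fold (log2 -0.24 ± 0.06, SE; edgeR adjusted p 0.00547).

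The RPKM of the 4 hippocampal and the 4 cortical libraries did not overlap for 7 members, Actl6a, Actl6b, Smarca2, Dpf1, Dpf3, Phf10 and Ss18l1, as for 50.7% of all genes (32.6% higher in hippocampus, 18.0% lower). Within replicate 1 and within replicate 2, which differ in depth, the hippocampal RPKM of Actl6a was higher by 0.38 to 0.61 log2 units, that of Dpf3 was higher by 1.49 to 2.02, and the log2 ratio of Smarca2 was -0.98 to -0.85. For Dpf1 it was -0.76 to -0.39 and for Phf10 0.20 to 0.23. In both genotypes Actl6a, Dpf1 and Phf10 were nearer 0 in replicate 2, while for Smarca2 and Dpf3 that held in controls only. Dpf1 gave -0.54 and -0.76 in replicate 1 against -0.39 and -0.49 in replicate 2 (controls, then KO). The other called members were nearer 0 in replicate 2 too. Actl6b gave -0.17 and -0.36 in replicate 1 against -0.088 and -0.14 in replicate 2. Ss18l1 gave -0.20 and -0.27 against -0.042 and -0.10, and Smarca4 -0.13 and -0.37 against -0.063 and -0.12. Smarcc2 gave -0.11 and -0.17 against -0.0017 and -0.031. The split of calls into higher and lower moved with the scaling. In the fit over both genotypes 53.7% of the called genes were higher in hippocampus, against 50.1% with RLE factors in edgeR, 49.4% with DESeq2 and 65.5% with limma on log2(RPKM + 1), which changes the test as well as the scaling. In controls that share was 56.1%, 53.7%, 52.4% and 65.8% in the same order, and in KO it was 53.0%, 49.9%, 48.1% and 66.1%. On log2(RPKM + 0.1) the median of all genes over both genotypes was 0.11. In each scaling tried, the 9 called members kept their direction.

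**Figure D2:**
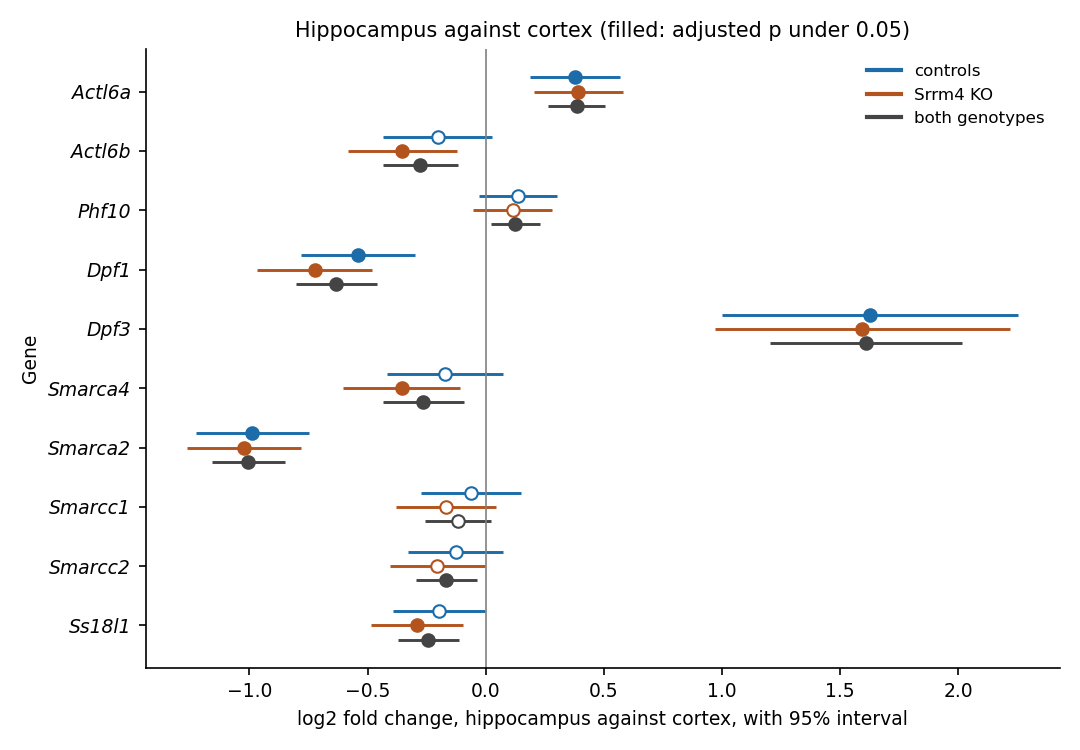
Log2 fold change of each member in hippocampus against cortex (horizontal axis) with its 95% interval, in controls, in Srrm4 KO and over both genotypes (colours); filled points have an edgeR adjusted p under 0.05. Dpf3 at 1.61 and Smarca2 at -1.01 lie farthest from 0 over both genotypes, and the intervals of controls and KO overlap for every member.

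Within the controls alone, 4 of the 10 members passed, against 33.9% of all genes tested: Actl6a and Dpf3 were higher in hippocampus (log2 0.38 and 1.63; 19.0% of all genes were higher), and Smarca2 and Dpf1 were lower (log2 -0.99 and -0.54; 14.9% of all genes were lower). The Actl6a call was lost without cortex control replicate 1 (edgeR adjusted p 0.0767) or hippocampus control replicate 2 (edgeR adjusted p 0.0574). Within the KO alone, 7 of the 10 passed, against 40.0% of all genes (21.2% higher, 18.8% lower). The same 4 were called in the same directions (Actl6a log2 0.39, Dpf3 1.59, Smarca2 -1.02, Dpf1 -0.72), and Actl6b (-0.35), Smarca4 (-0.36) and Ss18l1 (-0.29) were lower in hippocampus as well. That count of 7 fell to 4 when hippocampus KO replicate 1 (high mitochondrial share) was left out, to 4 without cortex KO replicate 1, and to 4 when only the 4 KO libraries were fitted. The difference between genotypes was tested directly: no member had an interaction that passed, as for all genes (0 of 16111, which is 0% of genes; 158 had an unadjusted p under 0.05, and DESeq2 called 0 genes). The members' interaction estimates ran from -0.18 for Dpf1 and Smarca4 to 0.01 for Actl6a, with an edgeR adjusted p of 1.00 for each.

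Within a library the ratio of alternative subunits does not depend on how libraries are scaled. Actl6b exceeded Actl6a 5.34-fold and 5.04-fold in the cortex controls and 5.17-fold and 5.05-fold in the cortex KO. In hippocampus the ratio was 3.40 and 3.54 in controls and 2.63 and 3.52 in the KO. Cortical and hippocampal libraries thus fell into separate ranges, with hippocampus KO replicate 1 the lowest. Smarca2 to Smarca4 was 0.702 to 0.725 in cortex and 0.395 to 0.500 in hippocampus, so Smarca4 was the more abundant ATPase transcript in all 8 libraries, and more so in hippocampus. Dpf1 to Phf10 was 2.28 to 2.61 in cortex and 1.32 to 1.53 in hippocampus. Dpf3 to Phf10 was 0.0538 to 0.0917 in cortex and 0.144 to 0.228 in hippocampus, the opposite direction. Ss18l1 was set against Ss18, its progenitor counterpart, which is not among the 10. The implied length of Ss18, 3041 bases, is also shorter than its longest annotated 3′ untranslated region of 3087 bases. The size of the Ss18l1 to Ss18 ratio therefore depends on how lengths were set. That ratio was 2.70 to 3.11 in cortex and 1.21 to 1.46 in hippocampus. Smarcc2 to Smarcc1 was 3.08 to 3.44 in cortex and 2.87 to 3.36 in hippocampus, and these ranges overlapped. These ratios are descriptions, with no test.

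**Figure D3:**
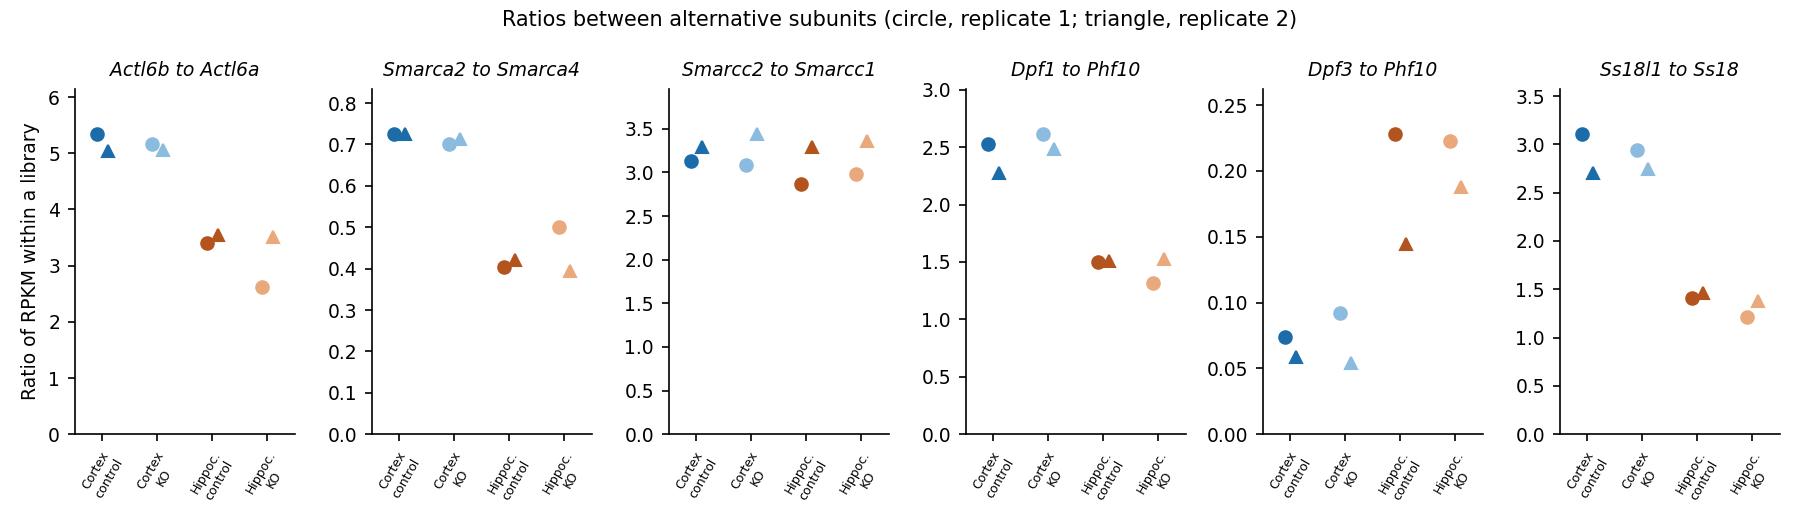
Ratio of RPKM between alternative subunits within each library (vertical axes, linear, starting at 0; horizontal axes, the 4 groups; circle, replicate 1; triangle, replicate 2). The Actl6b to Actl6a ratio is 5.04 to 5.34 in cortex and 2.63 to 3.54 in hippocampus, and among the 6 ratios Smarcc2 to Smarcc1 is the one whose tissues overlap.

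Among 21 other subunits of the BAF family, 2 were higher and 9 lower in hippocampus over both genotypes, with a median log2 difference of -0.16. Of all genes tested 29.0% were higher and 25.0% lower, 54.1% in all, and the 11 of 21 called here are close to that share. Ss18 was higher (log2 0.83 ± 0.04, SE), from 12.3 to 13.3 RPKM in cortex to 23.0 to 25.7 RPKM in hippocampus. Smarcd2, one of 3 interchangeable Smarcd subunits (BAF60), was higher as well (log2 0.57). Its relatives Smarcd3, the form listed with neurons, and Smarcd1 were lower (log2 -0.65 and -0.45). The largest decrease among the 21 was that of Bcl11b (log2 -1.17), a zinc finger protein that is both a BAF subunit and a marker of cortical neurons, from 47.7 to 56.0 RPKM in cortex to 20.8 to 26.4 RPKM in hippocampus. Its relative Bcl11a (log2 -0.26), the DNA-binding subunit Arid1a (-0.32), and the subunits Bicral (-0.28) and Bicra (-0.23) of the non-canonical complex were lower. The core subunits Smarcb1 (-0.20) and Smarce1 (-0.16) were lower too, but neither passed with limma on log2(RPKM + 1) (adjusted p 0.102 and 0.124). Neither did Bicra (adjusted p 0.155).

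Of 7 regulators tied to the exchange of subunits, 5 were higher in hippocampus and none lower over both genotypes, where 29.0% of all genes were higher and 25.0% lower. Ptbp1, a splicing repressor of non-neuronal cells and progenitors, rose from 26.0 to 29.6 RPKM in cortex to 44.8 to 49.9 RPKM in hippocampus (log2 0.69). Pax6, a transcription factor of radial glia, which recruits BAF complexes, was at 10.1 to 12.1 RPKM in cortex and 15.4 to 19.8 RPKM in hippocampus (log2 0.53). Ezh2, the Polycomb methyltransferase, was also higher (log2 0.29). Rest itself was low everywhere, 2.52 to 3.69 RPKM in cortex and 3.49 to 4.08 RPKM in hippocampus, with overlapping ranges and a log2 difference of 0.29 (edgeR adjusted p 0.0217). Its corepressor Rcor1 gave 0.20 (edgeR adjusted p 0.0312). Ptbp2, the neuronal relative of Ptbp1, was abundant in both tissues at 85.7 to 103 RPKM and did not pass. Nor did Srrm4, the targeted gene, at 0.870-fold over both genotypes. Within the KO alone Srrm4 was called lower in hippocampus, at 0.727-fold (95% interval 0.623 to 0.849).

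Markers of cell types moved with the tissues as well. Of 17 markers of cycling and radial glia progenitors, 14 were higher and 1 lower in hippocampus, and their summed level was 2401 to 2534 CPM in cortex and 3292 to 4056 CPM in hippocampus. Pax6 is counted among these 17 as well as among the regulators. All 8 markers of intermediate progenitors were higher, at 193 to 226 CPM in cortex and 481 to 556 CPM in hippocampus. Of 15 markers of postmitotic neurons, 13 were lower and 1 higher, at 11349 to 12187 CPM in cortex and 8925 to 10133 CPM in hippocampus. Hippocampus KO replicate 1 held both extremes, the highest sum of cycling and radial glia markers and the lowest neuron sum. It also held the lowest Actl6b, Dpf1, Ss18l1, Smarca4 and Smarcc2 and the highest Actl6a of the 8 libraries. Among the hippocampal libraries it had the highest Smarca2 (37.5 RPKM) and the lowest Phf10 (34.6 RPKM). Its intermediate progenitor sum, 487 CPM, was below the 556 CPM of hippocampus KO replicate 2. No marker in these lists was at 0 in any library. The dissections followed their labels: the 10 markers of the hippocampal field summed to 292 to 353 CPM in cortex and 1774 to 2211 CPM in hippocampus, and the 10 markers of cortical neurons to 1815 to 1954 CPM in cortex and 664 to 777 CPM in hippocampus. The part of cell composition in the differences of the members was not tested.

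The second question of the design is whether loss of Srrm4 alters these transcripts. None of the 10 members passed in cortex, in hippocampus or over both tissues (edgeR, and DESeq2 likewise), and none had an unadjusted p under 0.05. Among all genes tested, 0.0186% were called in cortex (0.0124% higher, 0.00621% lower), 0.0248% in hippocampus (0.0124% higher, 0.0124% lower) and 0.0621% over both tissues (0.0372% higher, 0.0248% lower). At an unadjusted p under 0.05 stood 183, 614 and 713 genes. The difference in Y-linked sums between control and KO libraries of replicate 2 lies within each of these comparisons. Over both tissues the log2 fold changes, KO against control, ran from -0.07 for Actl6b to 0.12 for Dpf3, and their edgeR adjusted p was 1.00 for each.

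The intervals state what sizes remain possible if the libraries are independent. The fit counted cortex and hippocampus of one number as separate libraries, whose deviations correlated at 0.368 in controls and 0.380 in KO. If they share an embryo, the intervals over both tissues are too narrow. For Actl6a the log2 difference over both tissues was 0.03 (95% interval -0.09 to 0.15), and for Actl6b -0.07 (-0.23 to 0.09). For Phf10 it was -0.012 (-0.12 to 0.09), for Dpf1 -0.0062 (-0.18 to 0.16) and for Dpf3 0.12 (-0.28 to 0.52). The ATPases gave 0.04 (-0.11 to 0.20) for Smarca2 and 0.0047 (-0.17 to 0.18) for Smarca4. The scaffold subunits gave -0.024 (-0.16 to 0.12) for Smarcc1 and 0.010 (-0.12 to 0.14) for Smarcc2, and Ss18l1 gave -0.024 (-0.15 to 0.11). For the 9 members other than Dpf3 the intervals reach no farther than -0.23 below and 0.20 above 0. That of Dpf3 is wider, and a difference that is not called is not shown to be absent.

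In cortex alone the largest estimates were those of Dpf3, 0.14 (95% interval -0.50 to 0.78), and Smarca4, 0.10 (-0.15 to 0.34). Both KO libraries lay above both controls for 2 members there, Smarcc2 (131 and 133 against 129 and 128 RPKM) and Dpf1 (77.3 and 79.6 against 76.3 and 71.8 RPKM), beside 9.64% of all genes. No member had both KO libraries below both controls in cortex, as 11.0% of all genes did. In hippocampus the largest estimates were -0.15 for Actl6b (95% interval -0.38 to 0.09) and 0.11 for Dpf3 (-0.49 to 0.70), and every member's genotypes overlapped (15.3% of all genes had both KO libraries above both controls there, and 11.8% below). The Dpf3 estimates turned negative when 1 library was left out, to -0.27 in cortex without cortex KO replicate 1 and to -0.18 in hippocampus without hippocampus control replicate 2. The Actl6b estimate in hippocampus came to -0.0029 without hippocampus KO replicate 1.

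**Figure D4:**
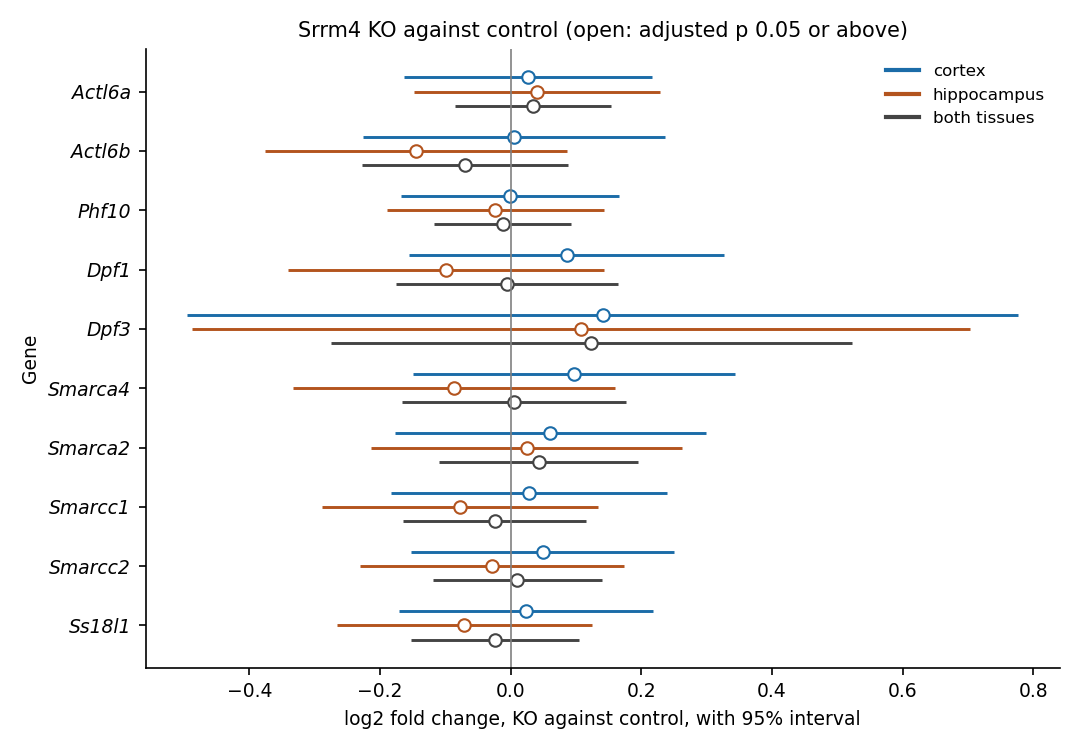
Log2 fold change of each member in Srrm4 KO against control (horizontal axis) with its 95% interval, in cortex, in hippocampus and over both tissues (colours); open points have an edgeR adjusted p of 0.05 or above. Every interval spans 0, and those of Dpf3, from -0.50 to 0.78 in cortex, are the widest.

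The other BAF subunits gave no call in the KO comparisons either, 0 of 21 in each. The 3 most abundant were Actb, with a log2 difference over both tissues of -0.10, Smarcb1 with -0.07 and Smarce1 with -0.0022. Of the 7 regulators, Srrm4 itself was the 1 called, and it was lower.

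The likeness of a gene to the actin-like pair was measured as the root-mean-square difference of centred log2 CPM over the 8 libraries. The genes nearest to Actl6a were Haus6 (0.0277 log2 units), Commd6 (0.0288) and Slc12a2 (0.0304). Those nearest to Actl6b were Inafm1 (0.0174), Ampd2 (0.0267) and Rnps1 (0.0339). Among the members, Smarca4 and Ss18l1 were each other's nearest (0.0440), as were Actl6a and Phf10 (0.148). The nearest member to Actl6b and the nearest to Smarcc1 were Smarcc2 (0.0857) and Ss18l1 (0.0828). Dpf3 lay far from all others, its nearest being Actl6a at 0.680. The 8 libraries fall into 2 tissues, which all these genes share, and the distances are a description with no test.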

How the data were processed

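RNA was purified with Tri Reagent, and per the labels' protocols TruSeq libraries followed. Per the submitters' processing notes, Bowtie and the mouse build mm9 were used; the counting rule is not stated there. The deposited tables have no header line, and were read as holding, per Ensembl gene, an RPKM value and a read count. The authors' RPKM column was text in 1114 genes of each table, which had no RPKM here. For 8425 genes, RPKM, count and library total gave the same implied gene length in all libraries within 0.995739 to 1.00414 times. The 12 samples share 8 tables, since runs 1 and 2 of replicate 1 name the same table in the labels, and each table counted as 1 library. Of the gene IDs, 20759 matched a symbol in GENCODE M21, and the 1908 others took at most 0.402% of the counts.

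Counts were tested in edgeR 4.0.16 (R 4.3.3): TMM factors, filterByExpr (minimum count 10, minimum total 15), quasi-likelihood fit of the 4 groups, or of tissue plus genotype for the comparisons over both, and Benjamini-Hochberg adjustment over all 16111 genes with a threshold of 0.05, two-sided. The scripts were tested on simulated data. All members were to be named in each comparison, as were the other BAF subunits that passed, otherwise the 3 with the highest mean RPKM; for likeness, the 3 nearest genes with a mean of at least 1 RPKM. The members and gene lists were chosen with earlier results of these data known. Alternatives were DESeq2 1.42.0, limma 3.58.1 on log2(RPKM + 1) or log2(RPKM + 0.1), other scaling factors and filters, a replicate block, and leaving out each library. Same-numbered libraries were not treated as pairs in the main fits. Between cortex and hippocampus of one number, their deviations correlated at 0.368 in controls and 0.380 in KO. Between libraries of different genotype the correlations ran from 0.0961 to 0.282. A shared embryo per number within a genotype thus remains possible. With a replicate block per genotype, 10196 genes differed by tissue over both genotypes (8712 without). Replicates differed beyond sampling noise (chi-square per degree of freedom 30.9 to 63.3). Exact permutation cannot go below p = 0.333 over 2 against 2 libraries, or below p = 0.0286 over 4 against 4. None was used in either case. Sequences came from RefSeq tables for GRCm38.p6 and from GENCODE M21; they carry no coordinates of the authors' build.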

Additional observations from a re-analysis of the deposited data

How the results depend on the processing

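Of the 9 members called between tissues over both genotypes, Actl6a, Smarca2, Dpf1, Dpf3 and Ss18l1 passed in all 17 alternatives (Dpf3 from 1.35 to 1.76, Smarca2 from -1.05 to -0.90, on the log2 scale). Actl6b was lost in 1, limma on log2(RPKM + 1) (adjusted p 0.0505), Smarca4 in 1, Smarcc2 in 9 and Phf10 in 10. The count of members called among KO libraries, 7, was 4 on the 4 libraries compared and ran from 4 to 8 when 1 library was left out. The cause was not tested.

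Counts over all genes moved in the KO comparisons. DESeq2 called 11 genes in cortex (edgeR 3), 18 in hippocampus (edgeR 4) and 37 over both tissues (edgeR 10). In hippocampus 2 genes were called with limma on log2(RPKM + 1), upper-quartile factors, the RPKM filter or the 4 libraries compared, and 2 to 6 with 1 library left out. Over both tissues limma on the mean of both tissues called 4, and the fit with the replicate block called 22. The block left the number of members called as it was in every comparison, and with it 7053 genes differed by tissue in controls (5464 without) and 8151 in KO (6442 without). Leaving out 1 library gave 3231 to 6000 genes by tissue in controls, lowest without cortex control replicate 1, and 4156 to 6364 in KO, lowest without cortex KO replicate 1.

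Signs turned where estimates were near 0. Smarcc1 by tissue in controls was 0.0087 and 0.0088 with limma at pseudocounts of 1 and 0.1, and ran from -0.15 to 0.016 with 1 library left out. Dpf1 in KO over both tissues was 0.0031 and 0.0028 with limma at those pseudocounts and 0.0039 with upper-quartile factors. With 1 library left out, the KO estimates over both tissues ran from -0.055 to 0.074 for Dpf1, -0.12 to 0.0022 for Actl6b, -0.066 to 0.014 for Ss18l1, -0.049 to 0.052 for Smarca4, -0.020 to 0.053 for Smarcc2, -0.018 to 0.29 for Dpf3, -0.034 to 0.013 for Phf10 and -0.071 to 0.021 for Smarcc1. Those of Dpf3 ran from -0.27 to 0.42 in cortex and from -0.18 to 0.49 in hippocampus.

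Adding 1 RPKM moved 5 of 24 log2 ratios by more than their SD: Actl6b to Actl6a in cortex control (2.38 to 2.31) and KO (2.35 to 2.29), Smarca2 to Smarca4 in cortex control (-0.46 in both), Dpf1 to Phf10 in hippocampus control (0.59 to 0.57) and Dpf3 to Phf10 in cortex control (-3.93 to -3.39). Dpf3 had the lowest counts of the members; the part of depth in its wide interval was not tested.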

Other observations

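Of 22 ATP-dependent remodelers outside the BAF family, 4 were higher and 6 lower in hippocampus than in cortex over both genotypes (edgeR adjusted p under 0.05; 54.1% of all genes differed), with a median log2 difference of -0.07. Chd7, a remodeler of neural stem cells, was higher (log2 1.39), as was Baz1a, a subunit of ISWI complexes (0.71). Chd5, a NuRD remodeler of neurons, was lower (log2 -0.86). These are the 3 with the smallest p. In the KO comparisons none of the 22 was called.

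Other cell type lists moved with tissue too. Of 12 markers of GABAergic interneurons, 11 were lower and 1 higher in hippocampus, at 976 to 1043 CPM in cortex and 523 to 644 CPM in hippocampus. All 9 microglial markers were higher, at 47.5 to 59.1 CPM in cortex and 86.0 to 112 CPM in hippocampus. Astrocyte lineage markers split into 4 higher and 3 lower of 7, oligodendrocyte lineage markers into 5 lower of 7, and endothelial and pericyte markers into 6 higher of 7. None of 7 erythroid markers passed. Of the 6 choroid plexus markers, 4 were higher. Hippocampus control replicate 2, where they were highest, also held the lowest hippocampal level of Dpf3, 5.24 RPKM.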
